A study of Mus musculus with 15 samples.

Results

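The 10 genes described here encode transcription factors that establish or maintain the T cell lineage: Satb1, Gata3, Runx1, Runx2, Runx3, Ikzf1, Ikzf2, Ikzf3, Bcl11b and Tox. They were matched by symbol among 23284 gene entries, and all 10 passed the expression filter that kept 11242 genes for testing. RNA was sequenced from CD8 T cells of OT-I mice, whose transgenic T cell receptor recognises the SIINFEKL peptide. Naive cells were taken at day 0, and the labels and the design text give their gate as CD44loCD62L+ and CD44-CD62L+ respectively. Every other population came from T cells mixed 2:1 with bone marrow-derived dendritic cells that carried the peptide, and was kept in culture for 14 days with a single passage. The medium held either IL-2 or a cocktail of the cytokines IL-7 and IL-21, the glycolysis inhibitor 2-deoxyglucose and TWS119, an inhibitor of the kinase GSK3. Sorting took the CD44+CD62L- cells of the IL-2 culture and split the cocktail culture in 3: the CD44loCD62L+ fraction, the CD44+CD62L+ fraction and the CD44+CD62L- fraction. CD44 marks cells that have met antigen, and CD62L is the homing receptor of naive and central memory cells. Each of the 5 populations has 3 libraries, described as technical replicates of its RNA, so every SD and p-value below measures the spread between libraries and not between cultures or mice. The sources used here do not state the age or background strain of the mice.

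Thymocytes become T cells under factors that open T cell genes and shut the programs of other blood lineages. Bcl11b seals this commitment, Satb1 organises chromatin loops at T cell genes, and Gata3 and Tox act early and again when the CD4 and CD8 lineages part. RUNX proteins bind DNA with their partner Cbfb and silence Cd4 in the CD8 lineage, and Ikaros family proteins recruit the NuRD chromatin remodelling complex. In mature CD8 T cells the same factors remain in use, and several are known to change during activation and memory formation.

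Members of a family can share reads, and the stretches below show how alike their DNA-binding regions are. Each is 75 bases of coding sequence (GENCODE vM21, GRCm38), with capitals at the positions where the 3 genes of a family differ. The Runx stretch lies in the Runt domain: coding exon 2 of 7 in Runx1 (chr16:92695499-92695573, minus strand), coding exon 3 of 9 in Runx2 (chr17:44735248-44735322, minus strand) and coding exon 2 of 6 in Runx3 (chr4:135152967-135153041, plus strand).
Runx1: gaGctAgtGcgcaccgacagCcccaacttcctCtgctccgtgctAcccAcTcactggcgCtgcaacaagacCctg
Runx2: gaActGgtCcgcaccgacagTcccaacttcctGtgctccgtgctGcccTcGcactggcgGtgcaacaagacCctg
Runx3: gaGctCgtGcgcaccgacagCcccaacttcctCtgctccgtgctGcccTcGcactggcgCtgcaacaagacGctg
Of the 75 bases, 65 (86.7%) were the same in all 3 Runx genes. A single transcript per gene, that with the longest complete coding sequence, was compared. The longest run shared by a pair of these was 38 bases, between Runx1 and Runx3, and other transcripts were not compared.

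The Ikaros family stretch encodes a zinc finger of the DNA-binding region, in coding exon 5 of 8 in each gene: Ikzf1 (chr11:11754012-11754086, plus strand), Ikzf2 (chr1:69570581-69570655, minus strand) and Ikzf3 (chr11:98488940-98489014, minus strand).
Ikzf1: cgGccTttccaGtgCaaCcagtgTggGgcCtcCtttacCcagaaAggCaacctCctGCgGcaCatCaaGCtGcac
Ikzf2: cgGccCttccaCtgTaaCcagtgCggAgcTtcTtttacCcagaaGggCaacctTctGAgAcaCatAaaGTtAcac
Ikzf3: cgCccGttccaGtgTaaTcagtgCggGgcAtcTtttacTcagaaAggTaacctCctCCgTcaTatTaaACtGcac
Here 54 of 75 bases were shared by all 3 genes. The longest run common to a pair of transcripts, chosen in the same way, was 26 bases, in Ikzf1 and Ikzf3. No source used here states the read length, so how many reads could fit 2 genes of a family was not tested.

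RefSeq promoters (GRCm38.p6, from 250 bases before to 50 after each start site) were at hand for 7 of the 10 genes, 14 promoters in all. The 3 Runx genes share a rare arrangement there. Runx1 and Runx3 each have a further promoter without it. FPKM is given per gene, so RNA from separate promoters cannot be told apart, and a link of the arrangement to RNA levels was not tested. A promoter of each gene holds a pair of RUNX motifs (ACCACA) separated by 2 bases, ACCACANNACCACA, on the gene's own strand. The sites lie at chr16:92826026-92826053 for Runx1 and chr17:44814584-44814611 for Runx2, both on the minus strand and with the site's first base 28 and 23 bases downstream of the start. For Runx3 the window is chr4:135120504-135120531 on the plus strand, with the site's first base at position -134. Capitals mark the 2 motifs.
Runx1: ataaacaACCACAgaACCACAagttggg
Runx2: acaaacaACCACAgaACCACAagtgcgg
Runx3: tccctcaACCACAgaACCACAaggccag
On either strand the paired motif occurred in 7 of 32851 RefSeq promoters (0.0213%), and the single RUNX motif, which each paired site also holds, in 16.8%. The 7 include the 3 Runx promoters above, so this share is a description and not a test. The single motif was found in the promoters of 3 of the 7 genes, the Runx genes themselves, and of 18.9% of all genes with a promoter. A TCF/LEF motif (CTTTGA, 16.0% of all promoters and 18.2% of genes) occurred in Bcl11b and Runx2, and an Ikaros motif (TGGGAA, 25.6% and 28.3%) in Runx3 and Satb1. The GATA motif searched (AGATAA, 11.2% of all promoters) occurred in 0 of the 14 promoters. These matches describe letters and not occupied sites.

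Values are FPKM, fragments per kilobase of transcript scaled to library size, so levels may be compared between genes. Fold changes named as log2 are differences in mean log2(FPKM + 1), a scale that understates the change of low genes, each with its standard error (SE). A gene was called changed at an adjusted p under 0.05 (limma, Benjamini-Hochberg over the 11242 genes) together with a log2 difference of at least 1. The fold minimum carries the call: by the adjusted p alone, between 48.3% and 91.8% of all genes passed in the 7 comparisons. With 3 libraries a side, the smallest two-sided p of an exact permutation test is 0.1.

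**Figure D1:**
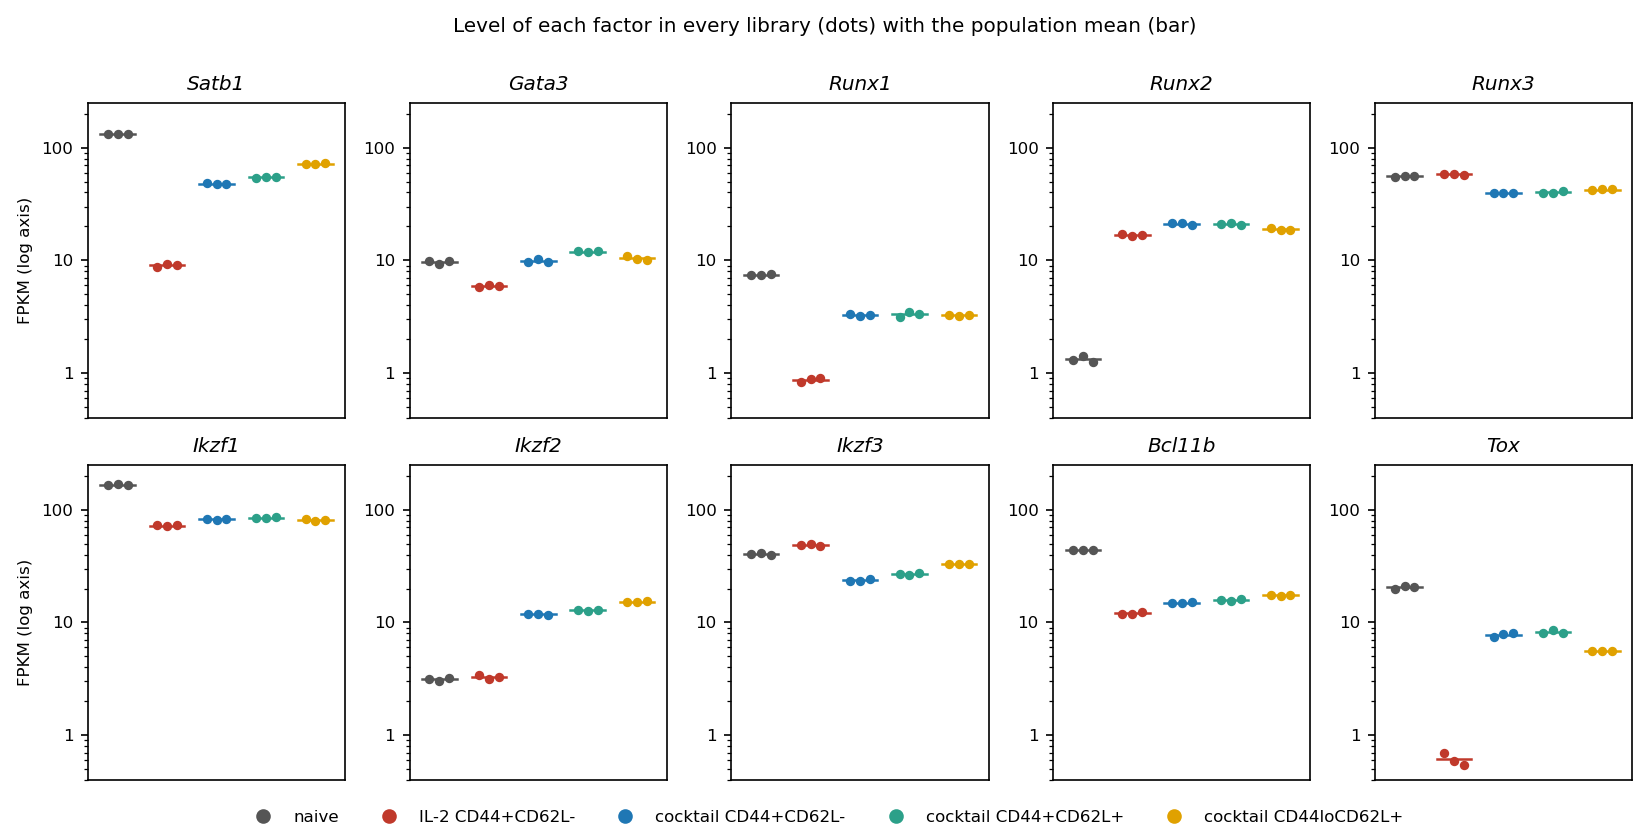
Level of each factor in FPKM (log axis) in every library, shown as dots, with the mean of each population of 3 libraries as a bar. Satb1, Runx1, Ikzf1, Bcl11b and Tox are highest in naive cells and lowest in IL-2 cells, while Runx2 is lowest in naive cells and Ikzf2 is low in both naive and IL-2 cells.

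Library sums of FPKM ran from 669341 to 781949, and between 10006 and 10473 genes reached 1 FPKM per library. Absolute depth is unknown. Ratios between low genes put the libraries' relative depths within 1.00 to 1.26 of each other, with the CD44loCD62L+ libraries at 1.25 on average. CD8 T cell identity was seen in all libraries: the 10 CD8 T cell markers summed to 2540 to 4310 FPKM, and Cd4 averaged at most 0.305 FPKM. The sum of 9 B cell markers was 44.5 to 45.7 FPKM in naive libraries and 2.14 to 6.99 in the cultured ones, where Ms4a1 and Pax5 were listed at 0. Of 19 dendritic cell and macrophage markers, 18 were in the table, and their sum was 264 to 265 FPKM in naive, 49.4 to 49.9 in IL-2 and 130 to 165 in cocktail libraries. Of this, Ctss alone averaged 143.6 FPKM in naive, 24.46 in IL-2 and 72.11 to 111.8 in cocktail populations. Natural killer cell markers (4 genes) summed to 443 to 773 FPKM. Nearly all of this was Nkg7, with population means of 446.4 to 757.5, while Klre1 averaged at most 8.948, Klrb1c 1.77 and Ncr1 0.06395. The erythroid, platelet and neutrophil list (8 of 9 genes in the table) summed to 24.5 to 28.5 in naive and 0.129 to 5.39 in cultured libraries. The 4 CD4 T cell markers summed to 7.74 to 17.4, of which Zbtb7b averaged 15.03 in IL-2 cells.

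Satb1, the chromatin organiser, spanned 14.6-fold between naive and IL-2 cells. It stood at 132.0, 132.4 and 132.2 FPKM in the 3 naive libraries and at 8.78, 9.28 and 9.14 in the IL-2 libraries. In cocktail cells it read 48.1, 48.0 and 47.9 FPKM in CD44+CD62L-, 54.2, 55.3 and 54.4 in CD44+CD62L+, and 71.7, 72.1 and 72.5 in CD44loCD62L+. The 5 populations did not overlap, and their order was naive, CD44loCD62L+, CD44+CD62L+, CD44+CD62L-, IL-2. As a share of the naive mean, IL-2 cells kept 6.86% and the cocktail fractions 36.3%, 41.3% and 54.5% in the order CD44+CD62L-, CD44+CD62L+, CD44loCD62L+. The step between cocktail and IL-2 cells of the same CD44+CD62L- gate was 5.29-fold (log2 difference 2.28, SE 0.0156, adjusted p = 6.98e-19, limma). In bulk RNA, fewer cells that express a gene and less of its RNA per cell cannot be told apart.

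Bcl11b, the factor required for T lineage commitment, followed the same order on a smaller scale. Naive libraries held 43.8, 43.5 and 43.6 FPKM and IL-2 libraries 11.8, 11.9 and 12.4. The cocktail fractions held 15.02, 15.004 and 15.06 FPKM in CD44+CD62L-, 16.0, 15.6 and 16.0 in CD44+CD62L+, and 17.7, 17.3 and 17.6 in CD44loCD62L+. Naive cells stood well above all 4 cultured populations, which lay within a narrow band. Against naive cells Bcl11b fell 3.62-fold in IL-2 cells (log2 difference -1.77, SE 0.0177, adjusted p = 3.23e-18, limma) and 2.49-fold in CD44loCD62L+ cells (-1.27, SE 0.0177, adjusted p = 2.32e-16). Cocktail and IL-2 cells of the CD44+CD62L- gate differed 1.25-fold (log2 difference 0.30), under the minimum for a call.

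Tox, an HMG-box factor needed for CD4 lineage development and known from exhausted CD8 T cells, had the widest range, 33.8-fold between naive and IL-2 cells. Its naive libraries read 19.8, 21.2 and 20.8 FPKM, and its IL-2 libraries 0.700, 0.588 and 0.543, all under 1 FPKM. CD44+CD62L- cocktail cells read 7.45, 7.84 and 7.98 FPKM, CD44+CD62L+ cells 8.14, 8.63 and 8.02, and CD44loCD62L+ cells 5.61, 5.605 and 5.62. Unlike Satb1 and Bcl11b, Tox was lowest within the cocktail culture in the CD44loCD62L+ fraction. Between cocktail and IL-2 cells of the same gate the ratio of means was 12.7 (log2 difference 2.44, SE 0.0394, adjusted p = 2.69e-15, limma). The CD44+CD62L+ and CD44+CD62L- fractions differed by 0.08 on the log2 scale (adjusted p = 0.108), although their libraries did not overlap.

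Gata3, a zinc finger factor of early T cell development and of type 2 helper cells, spanned 2.02-fold from its lowest to its highest population. Its libraries ranged from 9.21 to 9.81 FPKM in naive cells and from 5.82 to 5.99 in IL-2 cells. The cocktail fractions spanned 9.61 to 10.2 FPKM in CD44+CD62L-, 11.9 to 12.0 in CD44+CD62L+ and 10.2 to 11.02 in CD44loCD62L+. IL-2 cells were the low population, and naive and CD44+CD62L- cocktail cells overlapped (adjusted p = 0.382, limma). In none of the 7 comparisons did Gata3 reach the 1 log2 minimum. Its widest difference, cocktail CD44+CD62L+ against IL-2 cells, lies outside the 7 (log2 difference 0.91).

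The Runx genes moved in different directions. Runx1, which silences Cd4 in early thymocytes, read 7.44, 7.37 and 7.56 FPKM in naive libraries and 0.825, 0.892 and 0.902 in IL-2 libraries. Its cocktail libraries all lay between 3.14 and 3.46 FPKM, and the 3 cocktail fractions overlapped. The naive level was 8.54-fold that of IL-2 cells (log2 difference of IL-2 minus naive -2.17, SE 0.0306, adjusted p = 1.20e-16, limma). Cocktail cells were 3.75-fold above IL-2 cells within the CD44+CD62L- gate (log2 difference 1.19, SE 0.0306, adjusted p = 3.15e-13), and with a pseudocount of 5 that difference was 0.494 and was not called. Against naive cells the 3 cocktail fractions were 2.25- to 2.30-fold lower, at log2 differences of -0.97 to -0.996, and none of the 3 was called. All 3 were called with a pseudocount of 0.1 (-1.149 to -1.177) and under quantile normalization (-1.075 to -1.139).

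Runx2, best known as the master factor of bone formation and also expressed in activated CD8 T cells, was lowest in naive cells. Naive libraries held 1.31, 1.40 and 1.25 FPKM, against 17.2, 16.4 and 16.8 in IL-2 libraries. CD44+CD62L- cocktail cells held 21.3, 21.5 and 20.7 FPKM, CD44+CD62L+ cells 21.2, 21.6 and 20.7, and CD44loCD62L+ cells 19.2, 18.6 and 18.6. All 12 cultured libraries were far above all 3 naive ones, and the 2 CD44+ cocktail fractions overlapped. The rise over naive cells was 12.7-fold in IL-2 cells (log2 difference 2.94, SE 0.0274, adjusted p = 1.64e-18, limma). In cocktail cells it was 14.2-fold in CD44loCD62L+ (log2 difference 3.09) and 16.0-fold in each CD44+ fraction (3.25 and 3.26). A total of 519 of the 8837 annotated exonic bases of Runx2 (5.87%) also belong to the antisense gene Runx2os1, whose reads cannot be told apart unless strand was used, which no source used here states.

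Runx3, which represses Cd4 and drives the cytotoxic program of CD8 T cells, was the most abundant Runx gene in every population and had the narrowest range of the 10 factors (1.47-fold). It ranged from 55.3 to 56.1 FPKM in naive, 57.6 to 58.8 in IL-2, 39.3 to 39.8 in cocktail CD44+CD62L-, 39.3 to 41.6 in CD44+CD62L+ and 41.9 to 42.9 in CD44loCD62L+ libraries. IL-2 cells were highest and naive cells next, 1.04-fold apart (log2 difference 0.06, adjusted p = 0.00546, limma), an order that turned under quantile normalization (-0.136), and the 2 CD44+ cocktail fractions overlapped. The log2 difference between cocktail and IL-2 cells of the CD44+CD62L- gate was -0.55, under the minimum for a call.

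Summed over the family in FPKM as deposited, Runx RNA was nearly level between naive and cocktail cells and higher in IL-2 cells, while its makeup shifted. The sums were not taken under another scaling. Quantile normalization turned the order of IL-2 and naive cells for Runx3, the largest part of the sum. The sum was 64.6 ± 0.441 FPKM in naive, 75.9 ± 0.563 in IL-2 and 63.9 ± 0.224, 64.7 ± 0.742 and 64.5 ± 0.193 in the cocktail CD44+CD62L-, CD44+CD62L+ and CD44loCD62L+ populations (SD, n = 3 libraries). Runx2 made up 2.05% of it in naive cells, 22.1% in IL-2 cells and 33.1%, 32.7% and 29.2% in the cocktail fractions in the same order. Runx1 went from 11.5% in naive cells to 1.15% in IL-2 cells and 5.02% to 5.12% in cocktail fractions. Runx3 held 86.4%, 76.7% and 61.8% to 65.8% respectively. Cbfb, the partner of all RUNX proteins, was at 82.4 ± 1.03 FPKM in naive, 93.7 ± 0.724 in IL-2, 89.2 ± 0.280 in CD44+CD62L-, 91.9 ± 0.284 in CD44+CD62L+ and 65.5 ± 0.812 in CD44loCD62L+ cells (SD, n = 3). Relative to the Runx sum this was a ratio of 1.02 in CD44loCD62L+ cells and of 1.23 to 1.42 elsewhere.

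**Figure D2:**
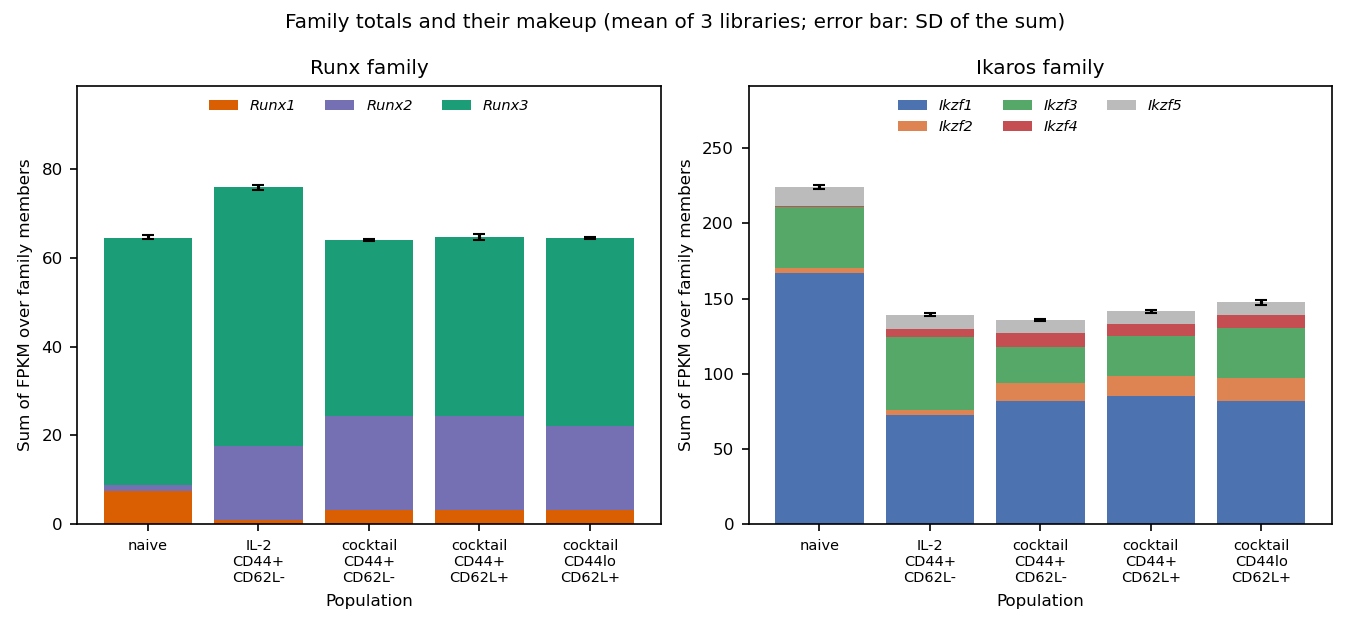
Sum of FPKM over the Runx genes and over Ikzf1 to Ikzf5 in each population, stacked by gene (mean of 3 libraries; error bars, SD of the sum). The Runx sum lies between 63.9 and 75.9 FPKM with a larger Runx2 share in cultured cells, and the Ikaros family sum is 224.1 FPKM in naive cells and between 135.8 and 147.4 in cultured cells.

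Among the Ikaros family, Ikzf1 (Ikaros, the founding member and a regulator of lymphoid development) was the most abundant of all 10 factors. It read 166.6, 168.1 and 166.3 FPKM in naive libraries, 72.5, 71.4 and 73.2 in IL-2 libraries and between 80.2 and 86.0 in the 9 cocktail libraries. Naive cells stood apart, at 1.96- to 2.31-fold the level of the cultured populations. The drop was called in IL-2 cells (log2 difference -1.19, SE 0.0138, adjusted p = 1.52e-17, limma) and in CD44loCD62L+ and CD44+CD62L- cocktail cells (-1.02 in both). In CD44+CD62L+ cells it was -0.96 and missed the minimum by a small margin, while under quantile normalization it was called (-1.147). With a pseudocount of 5 in place of 1 the 2 cocktail values were -0.985 and -0.984 and were not called. Cocktail CD44+CD62L- and CD44loCD62L+ libraries overlapped.

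Ikzf2 (Helios), found in regulatory T cells and in some activated T cells, was low in naive and IL-2 cells and high in the 3 cocktail fractions. It read 3.16, 3.04 and 3.24 FPKM in naive and 3.40, 3.18 and 3.28 in IL-2 libraries, which overlapped (adjusted p = 0.0848, limma). Cocktail libraries read 11.8, 11.9 and 11.6 FPKM in CD44+CD62L-, 13.0, 12.7 and 13.0 in CD44+CD62L+, and 15.1, 15.3 and 15.6 in CD44loCD62L+. Within the CD44+CD62L- gate the cocktail level was 3.58-fold that of IL-2 cells (log2 difference 1.58, SE 0.0254, adjusted p = 2.71e-15). Against naive cells the rise was 3.74-fold in CD44+CD62L-, 4.10-fold in CD44+CD62L+ and 4.88-fold in CD44loCD62L+ cells.

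Ikzf3 (Aiolos), which is induced on lymphocyte activation, was highest in IL-2 cells and higher in naive cells than in any cocktail fraction. IL-2 libraries read 48.3, 49.4 and 48.1 FPKM and naive ones 40.9, 41.7 and 40.1. Cocktail libraries read 23.5, 23.5 and 24.4 FPKM in CD44+CD62L-, 27.0, 26.3 and 27.5 in CD44+CD62L+, and 32.7, 32.9 and 33.0 in CD44loCD62L+. No 2 populations overlapped. Cocktail cells were 2.04-fold below IL-2 cells in the CD44+CD62L- gate, with a log2 difference of -0.9996 (SE 0.0198, adjusted p = 2.13e-14, limma) that fell just short of the minimum and was not called. It was called without library 3 of cocktail CD44+CD62L- (-1.02) or without library 1 or 3 of IL-2 (-1.004 and -1.006), and with a pseudocount of 0.1 (-1.027).

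The Ikaros family sum over Ikzf1 to Ikzf5 was 223.1 to 225.8 FPKM in naive libraries and averaged 135.8 to 147.4 in cultured populations. Ikzf1 made up 74.5% of it in naive cells, 52.0% in IL-2 cells and 55.6% to 60.4% in cocktail fractions. Ikzf2 was 1.40% of it in naive cells, 2.36% in IL-2 cells and between 8.67% and 10.4% in cocktail fractions. Ikzf3 held 18.2% in naive cells, 34.9% in IL-2 cells and 17.5% to 22.3% in cocktail fractions. Ikzf4 (Eos), outside the group of 10, went from 0.846 ± 0.113 FPKM in naive to 5.77 ± 0.416 in IL-2 and 8.25 to 9.67 in cocktail populations (SD, n = 3).

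Set side by side by comparison, 4 of the 10 factors rose in cocktail against IL-2 cells of the CD44+CD62L- gate (Satb1, Runx1, Ikzf2 and Tox) and 0 fell. Over all genes tested, 7.85% were called there, 4.64% upward and 3.20% downward. All 10 had an adjusted p under 0.05 and no overlap between the groups of 3, as did 84.3% and 84.6% of all genes respectively. The median absolute log2 difference was 0.82 over the 10 factors and 0.29 over all genes tested. The 2 other cocktail fractions set against IL-2 cells gave the same 4 factors, with log2 differences of 1.70 and 1.93 for Ikzf2, 1.201 and 1.18 for Runx1, 2.47 and 2.86 for Satb1 and 2.52 and 2.04 for Tox (CD44+CD62L+, then CD44loCD62L+). In those comparisons 8.16% and 15.8% of all genes were called, 4.67% and 7.45% upward and 3.49% and 8.31% downward. They share the IL-2 libraries. Of the 11 dendritic cell and macrophage markers tested, 5 rose and 0 fell in cocktail against IL-2 CD44+CD62L- cells (Lyz2, H2-Ab1, Cd74, H2-Aa and Ctss), with Lyz2 from 0.427 to 21.3 FPKM and H2-Ab1 from 0.622 to 13.7. The list was not uniform: with a minimum fold of 1.5, 7 rose and 2 fell. Clec12a went from 15.9 FPKM in IL-2 to 7.57 in cocktail CD44+CD62L- cells, and Itgax from 1.56 to 0.653. The part of such cells' RNA in the differences of the factors was not tested.

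Within the cocktail culture, 0 of the 10 factors were called between CD44+CD62L+ and CD44+CD62L- cells (limma), where 0.116% of all genes were (0.0356% higher and 0.0801% lower). Also 0 were called between CD44loCD62L+ and CD44+CD62L+ cells, where 2.68% of all genes were (0.418% higher and 2.26% lower). In the first of these comparisons (the CD62L gate) 6 of 10 factors had a p under 0.05, and in the second (the CD44 gate) 9 of 10. Each count was the same for unadjusted and adjusted p-values. The adjusted p was under 0.05 for 48.3% and 73.4% of all genes. Medians of the absolute log2 difference were 0.08 for the factors and 0.08 for all genes at the CD62L gate, and 0.17 and 0.18 at the CD44 gate. The factors with the greatest differences were Gata3 at the CD62L gate (log2 difference 0.26) and Tox and Satb1 at the CD44 gate (-0.49 and 0.39). Across the 3 cocktail fractions the range of a factor was 1.02- to 1.503-fold.

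**Figure D3:**
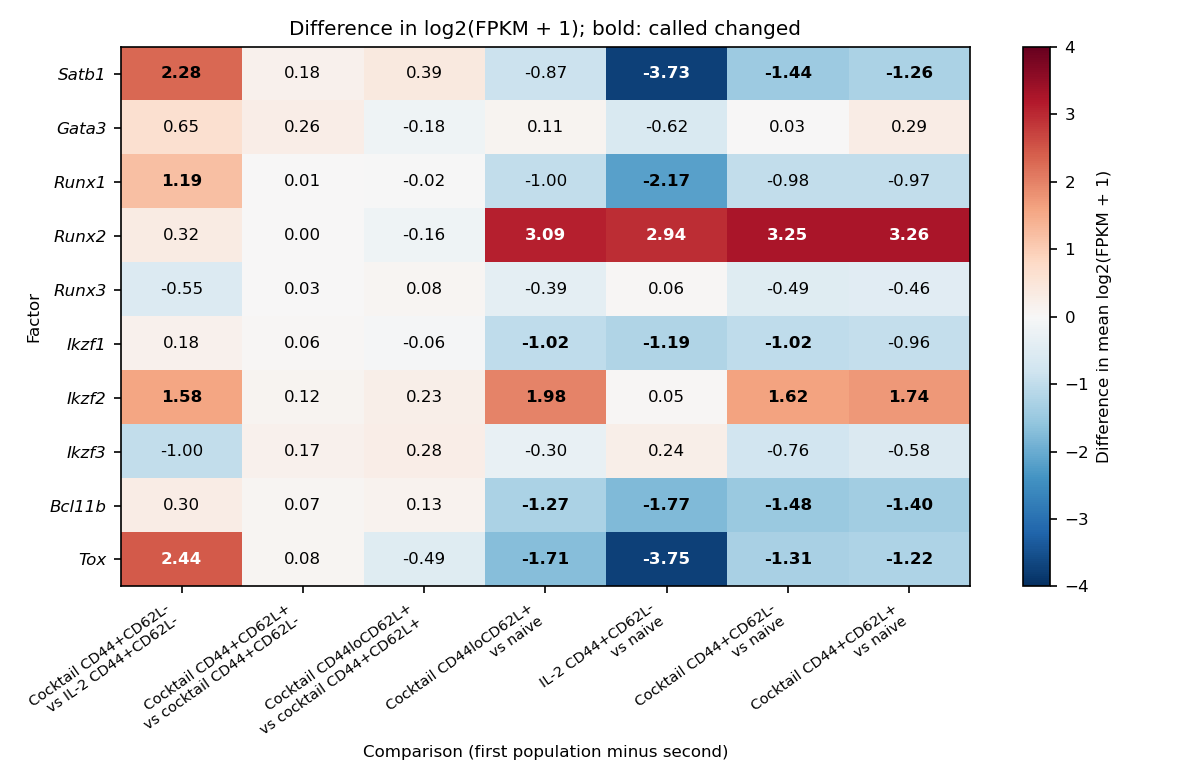
Difference in mean log2(FPKM + 1) for each factor (vertical axis) in the 7 comparisons (horizontal axis, first population minus second), coloured from blue (lower) to red (higher), with called differences in bold. No value is bold in the 2 columns that compare fractions of the cocktail culture, and Runx2 is bold in all 4 comparisons with naive cells.

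Against naive cells, IL-2 cells had 1 factor called higher (Runx2) and 5 called lower (Satb1, Runx1, Ikzf1, Bcl11b and Tox), where 31.3% of all genes were called, 17.6% higher and 13.7% lower. Satb1 fell 14.6-fold (log2 difference -3.73, SE 0.0156, adjusted p = 7.35e-22, limma), and Tox 33.8-fold (log2 difference -3.75, SE 0.0394, adjusted p = 5.52e-18). CD44loCD62L+ cocktail cells, sorted by the gate that the labels also give for naive cells, had 2 higher (Runx2 and Ikzf2) and 3 lower (Ikzf1, Bcl11b and Tox), where 17.7% of genes were called, 11.6% higher and 6.11% lower. Tox was 3.68-fold lower there (log2 difference -1.71), and Satb1 1.83-fold lower (-0.87), under the minimum. CD44+CD62L- cocktail cells had 2 higher and 4 lower (22.5% of genes called, 13.9% higher and 8.59% lower), and CD44+CD62L+ cells 2 higher and 3 lower (22.8%, 14.4% and 8.44%). Runx2 and Ikzf2 were the higher factors in both, and Satb1, Bcl11b and Tox were lower in both, although Tox in CD44+CD62L+ cells was not called with a pseudocount of 5 (-0.951). All 4 comparisons share the naive libraries. All 8 tested B cell markers fell in each cultured population, although only 2 were called with a pseudocount of 5. The part of B cell RNA in the naive levels of Ikzf1 and Ikzf3, which B cells also express, was not tested.

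**Figure D4:**
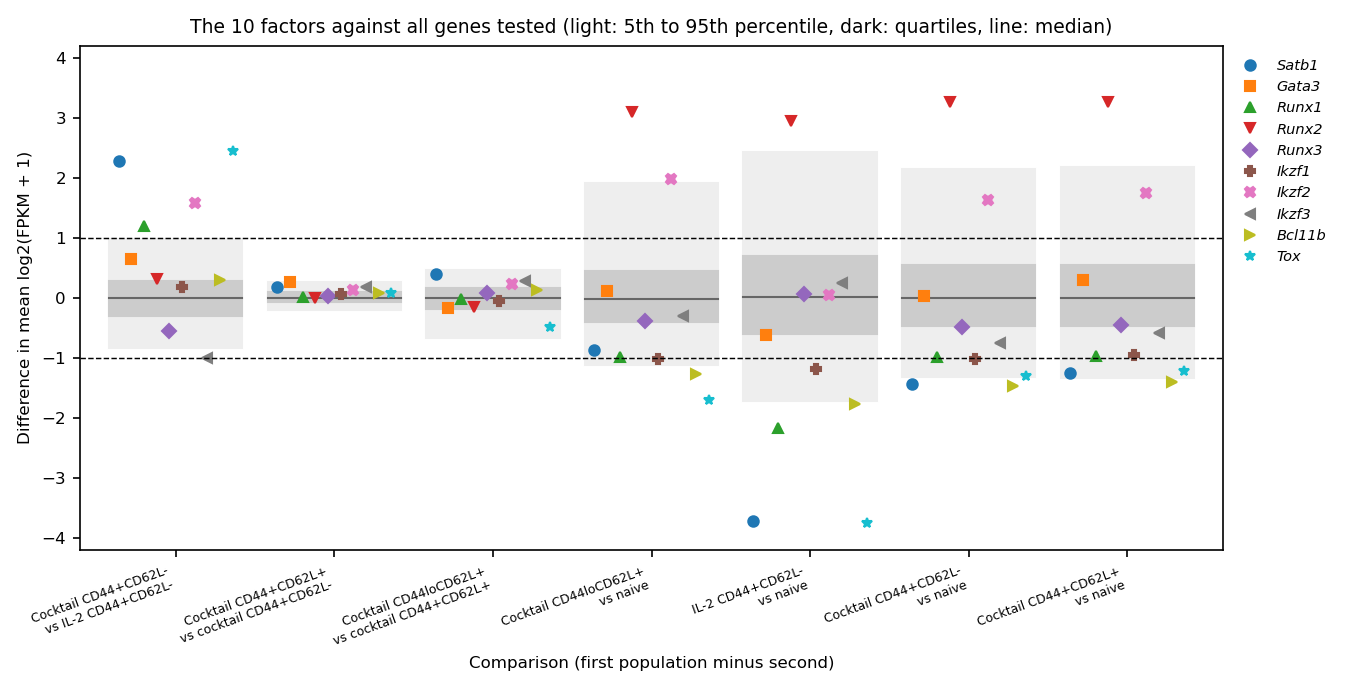
Difference in mean log2(FPKM + 1) of the 10 factors (symbols) in each of the 7 comparisons, over the spread of all 11242 genes tested (light box, 5th to 95th percentile; dark box, quartiles; line, median; dashed lines, the minimum for a call). In cocktail against IL-2 cells Satb1, Runx1, Ikzf2 and Tox lie above the light box and Ikzf3 below it. In IL-2 against naive cells Satb1, Runx1, Bcl11b and Tox lie below it, and Runx2 lies above it in every comparison with naive cells.

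Taking each factor's 5 populations in order of mean gives 40 steps between neighbours. In 8 of them the libraries overlapped, and 8 had an adjusted p of 0.05 or more (limma). Steps of any kind were not counted over all genes. Of all genes tested, 55.7% to 91.7% did not overlap between 2 populations, depending on which of the 10 comparisons was taken. Only 8 steps were of 2-fold or more: naive above the next population for Runx1, Bcl11b and Tox, IL-2 cells below the next for Satb1, Runx1 and Tox, cocktail above IL-2 cells for Ikzf2, and IL-2 above naive cells for Runx2. The coefficient of variation within a population was 0.111% to 13.3%, with a median of 1.56%.

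Genes with the most similar course over the 5 population means were sought for the 7 factors whose means ranged over at least 1 log2 unit, among 8533 genes that reached 5 FPKM. Likeness is the root mean square (RMS) difference of log2(FPKM + 1) after centring each gene. Plp2 was closest to Runx2 (RMS 0.0346), with 32.8 FPKM in naive and 265.3 to 344.4 in cultured populations, and Farp1 came next (0.0933). Tsc22d2 (0.0270) and Myst3 (0.0447) were closest to Ikzf1, and Fam132a (0.0432) and Tubb4a (0.0759) to Ikzf2. Bcl11b was matched by Camsap2 (0.0478) and Ccm2 (0.0493), and Runx1 by Smad1 (0.0668) and Ptov1 (0.0853). The matches were looser for Satb1, with Tlr12 (0.132) and Fam46c (0.133), and for Tox, with Eng (0.237) and Nfkbia (0.324). These are descriptions over 5 points that come from the same libraries.

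Other factors of T lineage commitment were counted from a list of 27, of which 23 were tested. In cocktail against IL-2 CD44+CD62L- cells 4 rose (Tcf7, Rora, Id3 and Ets1) and 0 fell, where 4.64% of all genes tested rose and 3.20% fell. The median log2 difference was 0.27, against -0.01 over all genes. Tcf7, the Wnt pathway factor of naive and memory T cells, went from 2.16 ± 0.257 FPKM in IL-2 to 237.4 ± 2.24 in cocktail CD44+CD62L- cells (SD, n = 3; log2 difference 6.24, SE 0.0394, adjusted p = 4.63e-19, limma), and Rora, a nuclear receptor, rose by 2.096 log2. In IL-2 against naive cells 4 rose and 8 fell (5 with a pseudocount of 5), where 17.6% of all genes rose and 13.7% fell, with a median of -0.24 against 0.02 over all genes. Zbtb7b (ThPOK), the CD4 lineage factor that RUNX proteins repress, rose by 3.70 log2 and the Notch effector Rbpj by 3.16. Tcf7 and Id3 fell most (log2 differences -7.75 and -3.79). Zbtb7b was at 0.234 FPKM in naive cells and 7.73 to 15.03 in cultured populations, while Cd4, which RUNX also represses, was at 0.305 in naive cells and at most 0.0198 in cultured ones. Between CD44loCD62L+ and CD44+CD62L+ cocktail cells 0 of the 23 were called (limma), and 16 had an adjusted p under 0.05, as did 73.4% of all genes.

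Cofactors were counted from 21 NuRD and corepressor genes, 20 of them tested. Between cocktail and IL-2 CD44+CD62L- cells 0 rose and 1 fell, where 4.64% of all genes tested rose and 3.20% fell. The gene that fell was the Groucho corepressor Tle1 (4.23 in IL-2 to 0.326 FPKM in cocktail cells). It lies under the 5 FPKM set for naming, was named after its values were seen and was not called with a pseudocount of 5. In IL-2 against naive cells 1 rose, Rbbp7 (1.09 log2, not called under quantile normalization), and 4 fell, against the 17.6% and 13.7% of all genes above. The lowest of these were Chd3, a NuRD remodeller subunit (-1.70 log2, from 110.7 to 33.4 FPKM), and Tle4 (-1.46 log2). Chd4, from the same list, was not called and went from 96.55 to 80.4 FPKM (named after its values were seen). Of 6 tested relatives and partners of the 10 factors (11 listed), 0 were called between cocktail and IL-2 CD44+CD62L- cells (limma). At an unadjusted p under 0.05 there were 5 and at an adjusted one 5, the latter beside 84.3% of all genes. In IL-2 against naive cells 1, Ikzf4, rose (log2 difference 1.88), though it was not called with a pseudocount of 5.

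From the list of coreceptor and recombination genes (15 of 19 tested), many of them targets of these factors, Cd6 alone was called in cocktail against IL-2 CD44+CD62L- cells (log2 difference 1.06), and not with a pseudocount of 5. In IL-2 against naive cells 0 rose and 7 fell, where 17.6% of all genes rose and 13.7% fell. Cd6, a receptor of mature T cells, and Dntt, the nucleotide-adding enzyme of receptor rearrangement, fell most (-2.78 and -2.66 log2), and the coreceptor genes Cd8b1 and Cd8a fell as well (-2.01 and -1.09; named after their values were seen). Of the type 2 genes associated with Gata3 (6 of 12 tested), 1 rose (Il4ra) and 4 fell (Il10, Il1rl1, Ccr4 and Maf) in cocktail against IL-2 cells, where 4.64% of all genes rose and 3.20% fell. With a pseudocount of 5, 2 of the 4 were called, and Ccr4 and Maf were named after their values were seen. Il10 went from 16.7 FPKM in IL-2 to 0.0292 in cocktail CD44+CD62L- cells and Il1rl1 from 7.40 to 0.359, while Il4ra rose by 1.24 log2 and Gata3 itself differed by 0.65. Of the progenitor and alternative lineage genes (5 of 18 tested), Kit rose (log2 difference 2.95) and Fcer1g fell (-1.97) in that comparison, and in IL-2 against naive cells 2 rose, Nfil3 by 3.29 and Fcer1g by 2.21, and 2 fell, Tyrobp and Pax5, which were named after their values were seen and were not called with a pseudocount of 5. Of the 75 genes tested from these 6 lists, 0 were called between CD44loCD62L+ and CD44+CD62L+ cocktail cells (limma), where 2.68% of all genes were. At an unadjusted p under 0.05 there were 57 and at an adjusted one 56, the latter beside 73.4% of all genes.

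All 10 genes are protein coding, and their spans on GRCm38 are chr17:51736187-51833290 (Satb1), chr2:9857078-9890034 (Gata3), chr16:92601466-92826149 (Runx1), chr17:44495987-44814797 (Runx2), chr4:135120652-135177990 (Runx3), chr11:11685003-11772926 (Ikzf1), chr1:69531214-69687245 (Ikzf2), chr11:98464902-98546031 (Ikzf3), chr12:107910403-108003602 (Bcl11b) and chr4:6686353-6991557 (Tox). In GENCODE vM21, 6 of them share exonic bases with another gene, 0.881% (Runx1) to 5.87% (Runx2) of their exonic length, and Runx3, Ikzf1, Ikzf3 and Bcl11b share none.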

How the data were processed

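The authors deposited a table of normalized FPKM values with 23284 entries and 15 library columns. The submitters' processing notes name TopHat2 2.0.9, Cuffdiff 2.1.1 and build mm10, while no source used here states their settings, annotation or strand handling. Values were compared as log2(FPKM + 1) with limma 3.58.1 in R 4.3.3 (group means, moderated variance with trend, all 15 libraries). Genes whose mean was under 1 FPKM in all 5 populations were left out. A 0 can be a failed estimate, since Eef1a1 is listed at 0 in every library. A 0 can also stand in 1 population only. Gzmb is listed at 0 in all 3 IL-2 libraries, beside means of 3.905 FPKM in naive and 896.2 to 1374 in cocktail populations. Whether that 0 is a failed estimate was not tested, and such a 0 would enter the comparisons between populations. Low-gene ratios gave relative depths: 11.4% to 20.0% of ratios sat at the commonest value within 0.01 log2, so whole reads were not recovered and no count test was run. The 10 genes, the lists and the tests were chosen with earlier results of these data known. All 10 factors are named. Likeness names the 2 nearest genes per factor. From each list up to 2 called genes per direction with at least 5 FPKM were to be named. Further genes were added after their values were seen, among them genes under 5 FPKM and genes that were not called. Replicate numbers did not pair libraries: the correlation of same-numbered deviations was -0.238 to 0.184 (median -0.0145), with 2 of 30 pairs over 0.1. Alternatives covered the pseudocount, filter, scaling, variance trend, libraries fitted, minimum fold, a replicate block and leaving out each library.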

Additional observations from a re-analysis of the deposited data

Results flagged for a closer look

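For 3 factors, IL-2 cells and cocktail cells lay on opposite sides of naive cells in every library of the fractions named below. How many of all genes tested lay so was not counted. The groups of 3 did not overlap for 84.6% of all genes between cocktail and IL-2 CD44+CD62L- cells, and for 91.7% between IL-2 and naive cells. The factors were picked for this arrangement, under which libraries of the IL-2 and cocktail cultures cannot overlap. The direct comparison of the cultures (cocktail minus IL-2, limma) also leaves naive cells out. It is therefore given as an effect size only, and the arrangement itself was not tested. Gata3 was below naive cells in IL-2 and above them in the CD62L+ cocktail fractions. The cultures differed by 0.91 log2 for CD44+CD62L+ and by 0.73 for CD44loCD62L+ (SE 0.0324 each). Runx3 was above naive cells in IL-2 (0.06 log2, but -0.136 under quantile normalization) and below them in the 3 cocktail fractions, with differences between cultures of -0.55 for CD44+CD62L-, -0.52 for CD44+CD62L+ and -0.45 for CD44loCD62L+ (SE 0.0177 each). Ikzf3 had the same arrangement, at -0.9996, -0.83 and -0.55 in that order (SE 0.0198 each). None of the 8 differences was called at the 1 log2 minimum. The libraries are technical replicates of 1 RNA per population, so differences between separate cultures were not tested.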

How the results depend on the processing

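Of 770 alternative values of the 10 factors over 7 comparisons, 739 kept their direction and their side of the call, 4 were no longer called, 19 became called and 8 changed sign, with only the leave-one-library-out fit farthest from the reported value counted per value. Of all 420 values with a library left out, 10 changed. The counts of called factors stayed within 1.5 times in every comparison. Calls lost were at a pseudocount of 5: Runx1 in cocktail against IL-2 CD44+CD62L- cells (0.49 log2), Ikzf1 in CD44loCD62L+ and CD44+CD62L- cells against naive (-0.99 and -0.98) and Tox in CD44+CD62L+ cells against naive (-0.95). Of the calls gained, 9 came with the minimum fold of 1.5. Calls gained at a pseudocount of 0.1 were Ikzf3 in cocktail against IL-2 CD44+CD62L- cells (-1.027) and Runx1 in the 3 cocktail fractions against naive (-1.149 to -1.177). Quantile normalization also called those 3 Runx1 values and Ikzf1 in CD44+CD62L+ against naive cells (-1.147). Called B cell markers against naive went from 8 to 2 with a pseudocount of 5 or a 5 FPKM filter, which left 2 to test, and type 2 genes that fell in cocktail against IL-2 cells from 4 to 2 with a pseudocount of 5. Sign changes under quantile normalization were Runx1 -0.001 and Runx2 -0.017 at the CD62L gate, Ikzf1 0.012 at the CD44 gate, and Runx3 -0.136 and Ikzf2 -0.072 in IL-2 against naive cells. That normalization moved the median of all genes to -0.105 and -0.114 for cocktail CD44+CD62L- and CD44+CD62L+ cells against naive. Leaving out single libraries turned Runx1 and Runx2 at the CD62L gate (both to -0.014) and Runx1 at the CD44 gate (0.003). Runx1 in CD44loCD62L+ against naive cells (-0.996, just under the minimum) was called without naive library 2 or CD44loCD62L+ library 3. The replicate block kept all 70 values on their side of the call. Depth limits Tox and Runx1 in IL-2 cells, both under 1 FPKM, and Runx2 in naive cells at 1.32.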
